A study of Homo sapiens with 12 samples.

Results

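N6-methyladenosine (m6A) is the most common internal modification of messenger RNA, and the genes described here are 10 that write it, read it or remove it: the readers YTHDF1, YTHDF2, YTHDF3, YTHDC1 and YTHDC2, the writers METTL3, METTL14 and WTAP, and the erasers ALKBH5 and FTO. Their probes were found by symbol, through the transcript that each is annotated to, and the set was drawn up with earlier results of these data known. All 10 were measured, among 18253 genes in all, by 106 probes, of which 98 were kept, those that Feature Extraction called well above background in at least 1 group on each of its 3 arrays. Of the 98 kept probes, 71 were above background on all 12 arrays, and the other 27 on fewer.

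The cells were MDA-MB-231, an established line from a receptor-negative, mesenchymal breast cancer, and 12 single-color exon arrays were read, 3 in each of 4 groups. The cntrl cells received control oligonucleotides for the mimic and for the siRNA. The mimic145 cells received a mimic of miR-145-5p, the sirnaAGO2 cells a Dicer-substrate siRNA against Ago2, the Argonaute protein that small RNAs guide to their targets, and the sirnaAGO2+mimic145 cells both, at 5 nM of mimic and 500 pM of siRNA with 72 h of silencing. The sources used here do not state whether mimic145 cells also received the siRNA control or sirnaAGO2 cells the mimic control, so a comparison with cntrl may include that difference. The comparisons ask which genes the mimic changed, and whether it still did so when Ago2 was low. All groups are cultures of 1 cell line transfected in a dish, and the silencing was partial at the level of AGO2 RNA. The paper examined Ago2 protein by Western blot, and these arrays do not measure protein. AGO2 gave a log2 signal of 9.21, 9.14 and 9.01 on the cntrl arrays and of 8.35, 8.44 and 8.42 on the sirnaAGO2 arrays. The mean over its probes was thus 61.0% of cntrl (adjusted p = 0.00491, limma). With both agents it was 48.1% of mimic145 (adjusted p = 0.000783, limma). That reference was higher, at a mean of 9.40 against 9.12 in cntrl, while the silenced means were 8.41 without and 8.34 with the mimic. All 19 kept probes of AGO2 were lower with silencing alone, by -0.13 to -1.40, so the part left differs by probe. Of 93 probes of 6 mesenchymal marker genes, VIM and CD44 among them, 92 were above background on all cntrl arrays. The luminal and epithelial markers were mixed, with 26 of 57 probes in all: 0 for PGR and FOXA1, 5 of 14 for ESR1, 7 of 16 for CDH1, 6 of 6 for GATA3 and 8 of 10 for EPCAM. The leukocyte and endothelial markers PTPRC and PECAM1 had 5 of 35 such probes.

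METTL3 is the catalytic subunit of the methyltransferase, METTL14 its RNA-binding partner and WTAP the adaptor that holds the complex in nuclear speckles. The YTH proteins bind the methylated base: YTHDF2 in the cytoplasm recruits the machinery that deadenylates and degrades the bound mRNA, and YTHDC1 acts in the nucleus. FTO and ALKBH5 are oxygenases that take the methyl group off again.

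Beside the siRNA, the agent that separates the groups is the mature miRNA copied by the mimic, shown here because its seed defines what it can pair with. From RefSeq (GRCh38.p14, chr5:149430661-149430683, plus strand) it reads as follows, 5′ to 3′, with the seed, bases 2 to 8, in capitals.

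hsa-miR-145-5p: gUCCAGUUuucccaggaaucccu

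With the mimic, YTHDF2 and WTAP fell, and none of the other 8 genes passed the test. YTHDF2 fell to 68.1% and WTAP to 76.9% of their cntrl levels. The rule for a change was a limma p under 0.05 after adjustment over all 18253 genes. By that rule 22.6% of all genes changed between mimic145 and cntrl, with 11.0% of all genes lower and 11.6% higher. A count of 2 of 10 is therefore near the share of all genes. The median log2 difference of the 10 genes was -0.13, and 0.01 over all genes. By the paired test that the methods name, 2 of the 10 had a p of at most 0.05, against 21.2% of all genes. After Benjamini-Hochberg adjustment of that test 0 of the 18253 genes passed, in this comparison as in the 4 others, so its adjusted counts of 0 say nothing about these genes.

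YTHDF2 was the reader with the clearest difference. Its log2 signal was 10.10, 10.04 and 10.11 on cntrl replicates 1, 2 and 3, and 9.36, 9.61 and 9.62 on mimic145 replicates 1, 2 and 3. On sirnaAGO2 arrays it was 9.80, 9.81 and 9.93, and with both agents 9.56, 9.65 and 9.72. The 3 cntrl arrays were the highest of all 12, the arrays with the mimic were the lowest in both arms, and the arrays with silencing alone lay in between without overlap with either. The cntrl mean was 10.08 ± 0.04 (SD, n = 3) and the mimic145 mean 9.53 ± 0.14. In silenced cells the mean was 9.85 ± 0.07 without the mimic and 9.64 ± 0.08 with it.

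The log2 difference of YTHDF2 between mimic145 and cntrl was -0.55 (SE 0.07, 95% confidence interval -0.72 to -0.39, adjusted p = 0.00105, limma). The replicate pairs differed by -0.74, -0.43 and -0.49. The call held without each replicate and without each array in turn, at -0.61 to -0.46. The study lists YTHDF2 among genes lower on these same arrays that, by the miRTarBase repository, were earlier identified as direct targets of the miRNA. Its direction in that list is thus not independent evidence of the fall here. The earlier identification as a target does not rest on these arrays, and was not examined here. In every slide the mimic array was at the second position, so that position and mimic cannot be told apart for any gene here. In cultures of cells, fewer expressing cells and less RNA per cell cannot be told apart either.

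**Figure D1:**
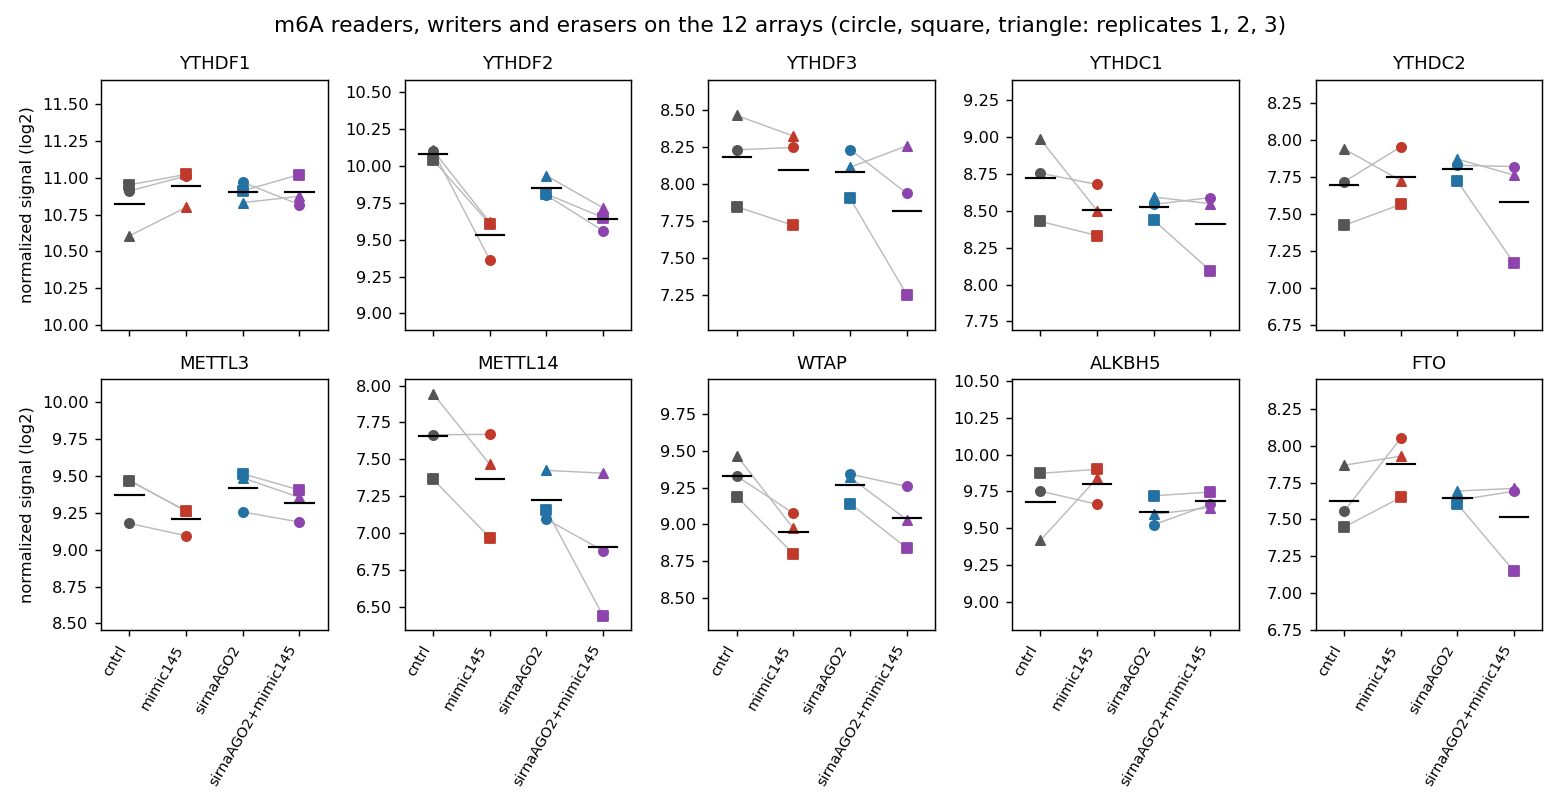
Normalized log2 signal of the 10 genes (vertical axes, all spanning the same range of log2 units) on the 12 arrays by group (horizontal axes), with circles, squares and triangles for replicates 1, 2 and 3, a black bar for the mean of a group, and grey lines joining arrays of 1 slide. The 3 cntrl arrays of YTHDF2 lie between 10.04 and 10.11, above all others, while for METTL14, YTHDF3, YTHDC1, YTHDC2 and FTO the lowest square is that of sirnaAGO2+mimic145 replicate 2.

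The probes of YTHDF2 did not fall alike. Of its 5 probes, 4 were kept, and 3 of the 4 were lower with the mimic. Probe 2 differed most, by -1.27, with a mean of 10.18 ± 0.25 in cntrl and 8.91 ± 0.06 in mimic145. Probes 1 and 4 differed by -0.55 and -0.47, and probe 3, above background on 11 arrays, by 0.07. Probe 4 is annotated to another transcript of the gene than probes 1 to 3. Leaving out probe 3 makes the gene's difference larger: with only probes above background on all 12 arrays it was -0.76. Leaving out probe 2 would make it smaller, and a fit without probe 2 was not made. With the median over probes it was -0.91. The paper lists YTHDF2 as lower with the mimic, in control and in silenced cells, and with silencing alone. Each listed fall is larger than the gene mean here and has a listed p under 0.05. A false discovery rate is listed for the mimic in control cells only. Its listed values are near those of probe 2.

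**Figure D2:**
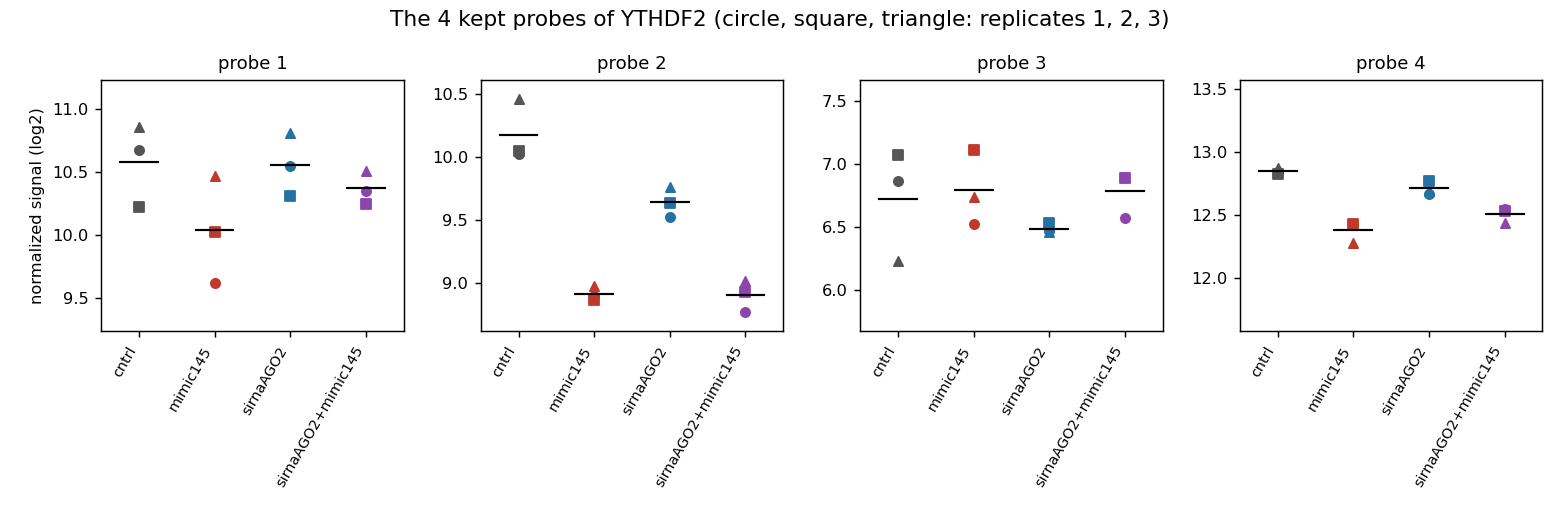
Normalized log2 signal (vertical axes, same span) of the 4 kept probes of YTHDF2 on the 12 arrays by group (horizontal axes), with circles, squares and triangles for replicates 1, 2 and 3 and a black bar for the mean. Probes 1, 2 and 4 are lower with the mimic in both arms, and probe 2 reaches the same mean, 8.91, in mimic145 and in sirnaAGO2+mimic145.

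The other readers did not pass the test. YTHDF1, the paralog known for raising the translation of bound mRNA, gave 10.91, 10.95 and 10.61 on cntrl and 11.01, 11.02 and 10.80 on mimic145 arrays, higher in 3 of 3 pairs with overlapping groups (0.12, adjusted p = 0.320, limma). YTHDF3, which works with both other YTHDF proteins, differed by -0.08 (adjusted p = 0.678, limma), with a confidence interval of -0.37 to 0.20. Differences between the paralogs were not tested, and neither was binding of a probe of one to transcripts of another. YTHDC1, the nuclear reader, was lower in 3 of 3 pairs and on 15 of 16 kept probes, at -0.22 (adjusted p = 0.154, limma), with 8.75, 8.43 and 8.98 on cntrl and 8.68, 8.33 and 8.50 on mimic145 arrays. Most of that came from replicate 3, whose pair differed by -0.48 against -0.08 and -0.10 in the others. YTHDC2, an RNA helicase that carries a YTH domain, differed by 0.05 (adjusted p = 0.780, limma) with 22 of 27 kept probes higher.

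Among the writers, WTAP had the fall that passed the test. Its log2 signal was 9.33, 9.19 and 9.47 on the cntrl arrays and 9.08, 8.80 and 8.97 on the mimic145 arrays, so that the groups did not overlap. The means were 9.33 ± 0.14 and 8.95 ± 0.14 (SD, n = 3), a log2 difference of -0.38 (SE 0.08, 95% confidence interval -0.55 to -0.20, adjusted p = 0.00853, limma), and the pairs differed by -0.25, -0.39 and -0.49. Of its 10 kept probes, annotated to 4 transcripts, 9 were lower, with probe differences from -0.89 to 0.01. The largest fall was that of probe 6, above background on 11 arrays, which gave 7.95, 5.92 and 8.03 on mimic145 replicates 1, 2 and 3. The call is less firm than that of YTHDF2. It was lost without replicate 2 (-0.37, adjusted p = 0.0799, limma) and without replicate 3 (-0.32, adjusted p = 0.0951), and with the median over probes the difference was -0.21 (adjusted p = 0.335). It was also lost without the replicate block (adjusted p = 0.0828) and in a fit of the compared groups alone (adjusted p = 0.0641).

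METTL3 and METTL14, the core of the methyltransferase, were lower on average without passing the test. METTL3 gave 9.18, 9.47 and 9.47 on cntrl and 9.09, 9.26 and 9.26 on mimic145 arrays, a difference of -0.17 (adjusted p = 0.0740, limma), lower in 3 of 3 pairs and on 10 of 11 probes. With only probes above background on all 12 arrays, which for METTL3 are the same 11 probes in a fit of fewer genes, the adjusted p was 0.0462. METTL14 differed by -0.29 (adjusted p = 0.215, limma), with replicate 1 at 7.67 on both arrays and the other pairs at -0.40 and -0.48. On its 4 probes above background on all 12 arrays it was -0.08, and the probe with the largest difference, -1.29, was above background on 8 arrays.

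The erasers averaged above their cntrl level and did not pass the test. FTO gave 7.55, 7.45 and 7.87 on cntrl and 8.05, 7.65 and 7.93 on mimic145 arrays, higher in 3 of 3 pairs and on 7 of 8 kept probes, at 0.25 (adjusted p = 0.147, limma) with overlapping groups. FTO passed under a pair of the alternatives, at 0.30 (adjusted p = 0.0403) when the arrays were scaled by their 75th percentile and at 0.28 (adjusted p = 0.0379) with only probes above background on all 12 arrays. ALKBH5 differed by 0.12 (adjusted p = 0.416, limma), which without replicate 3 became -0.03. Its values of 9.75, 9.87 and 9.42 on cntrl and 9.66, 9.90 and 9.84 on mimic145 arrays overlapped.

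**Figure D3:**
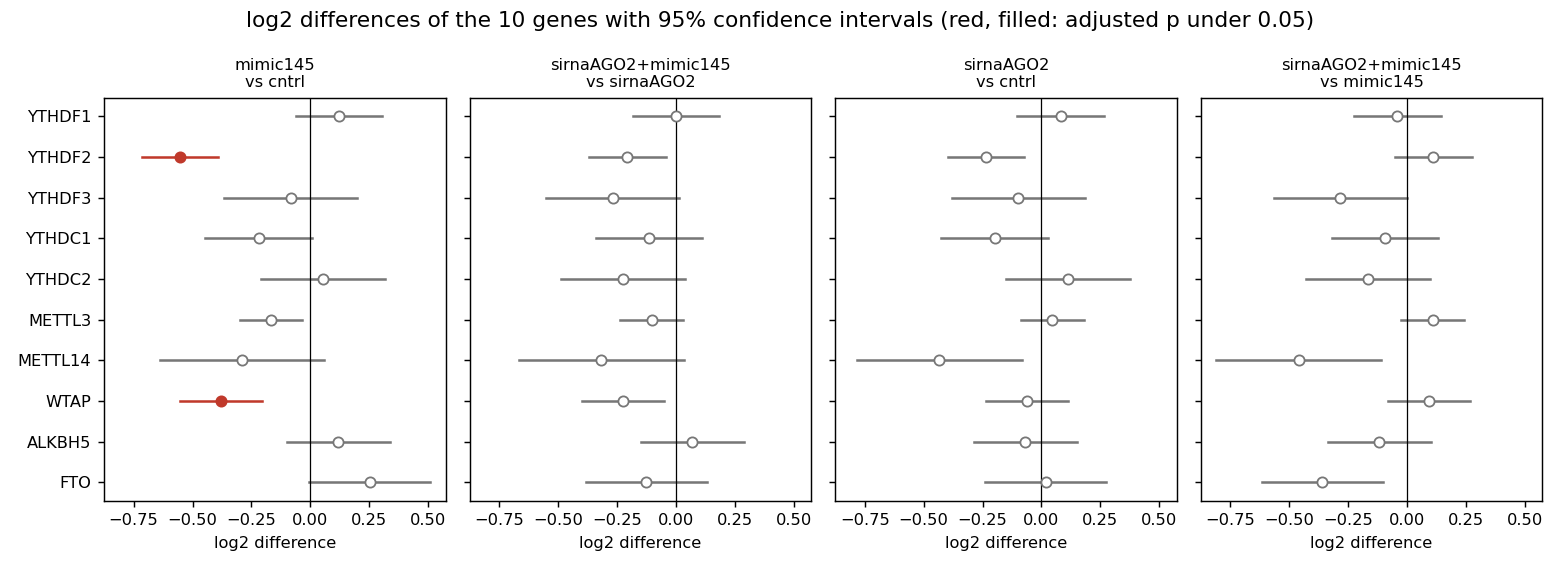
Log2 differences (horizontal axes) of the 10 genes (vertical axis) in 4 comparisons, with 95% confidence intervals from limma as lines, and red filled points where the adjusted p was under 0.05. Only YTHDF2 and WTAP are red, in the first panel, at -0.55 and -0.38.

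In Ago2-silenced cells, 0 of the 10 genes changed with the mimic by the same rule, where 7.28% of all genes did. At an unadjusted p under 0.05, 2 of the 10 passed in limma, YTHDF2 and WTAP, against 28.8% of all genes. The paired test gave 2 at p of at most 0.05, YTHDF2 and METTL3 but not WTAP, against 14.2% of all genes. YTHDF2 was lower in 3 of 3 pairs, by -0.24, -0.16 and -0.22, and its arrays with and without the mimic did not overlap. The difference of -0.21 (SE 0.07, 95% confidence interval -0.37 to -0.04) had an adjusted p of 0.104 (limma). It passed under other choices: at -0.25 with normexp background correction (adjusted p = 0.0253), at -0.38 with only probes above background on all 12 arrays (adjusted p = 0.0141) and at -0.46 with the median over probes (adjusted p = 0.0331), where the control-cell difference was -0.91. Probe 2 of YTHDF2 differed by -0.74 here, probes 1 and 4 by -0.19 and -0.20, and probe 3 by 0.30. How far the passing values rest on probe 2 was not tested.

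WTAP gave 9.34, 9.14 and 9.32 on sirnaAGO2 arrays and 9.26, 8.84 and 9.03 with the mimic added, lower in 3 of 3 pairs with overlapping groups (-0.22, adjusted p = 0.101, limma). Without sirnaAGO2+mimic145 replicate 1 it passed, with an adjusted p of 0.0449. METTL3 differed by -0.10 and METTL14 by -0.32, each lower in 3 of 3 pairs, with adjusted p of 0.277 and 0.211 (limma). The others ranged from -0.27 for YTHDF3 to 0.07 for ALKBH5.

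The array of sirnaAGO2+mimic145 replicate 2 stood low for many of these genes. It held the lowest of the 12 values for METTL14, YTHDF3, YTHDC1, YTHDC2 and FTO, 5 of the 10, where 15.5% of all genes were lowest there. The same array had the smallest share of spots well above background, 60.5%, in a range of 60.5% to 77.3% over the arrays. The next smallest was 61.6%, on mimic145 replicate 2. Dimmer probes, those above background on fewer than 12 arrays, were shifted lower in both arms. In the silenced arm 25 of the 27 were lower with the mimic, at a median of -0.44. Of the other 71 probes 46 were lower, at a median of -0.08. Over all genes 64.1% of the dimmer and 46.4% of the other probes were lower, at medians of -0.16 and 0.02. In control cells the medians were -0.16 and -0.03 for the 10 genes, and -0.11 and 0.05 over all genes. Most of the 27 were not above background on every sirnaAGO2+mimic145 array, and some were kept through sirnaAGO2 alone. Most of the 27 were also not above background on every mimic145 array, and fewer missed a cntrl array. Low values with the mimic are thus partly built into this split in both arms. Without sirnaAGO2+mimic145 replicate 2, the mimic difference in silenced cells went from -0.32 to -0.21 for METTL14, from -0.27 to -0.13 for YTHDF3 and from -0.22 to -0.11 for YTHDC2. With only probes above background on all 12 arrays it turned to 0.12 for METTL14, on 4 probes, and to 0.16 for YTHDF3, on 1 probe. The part of this array's signal in these differences was not tested.

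**Figure D4:**
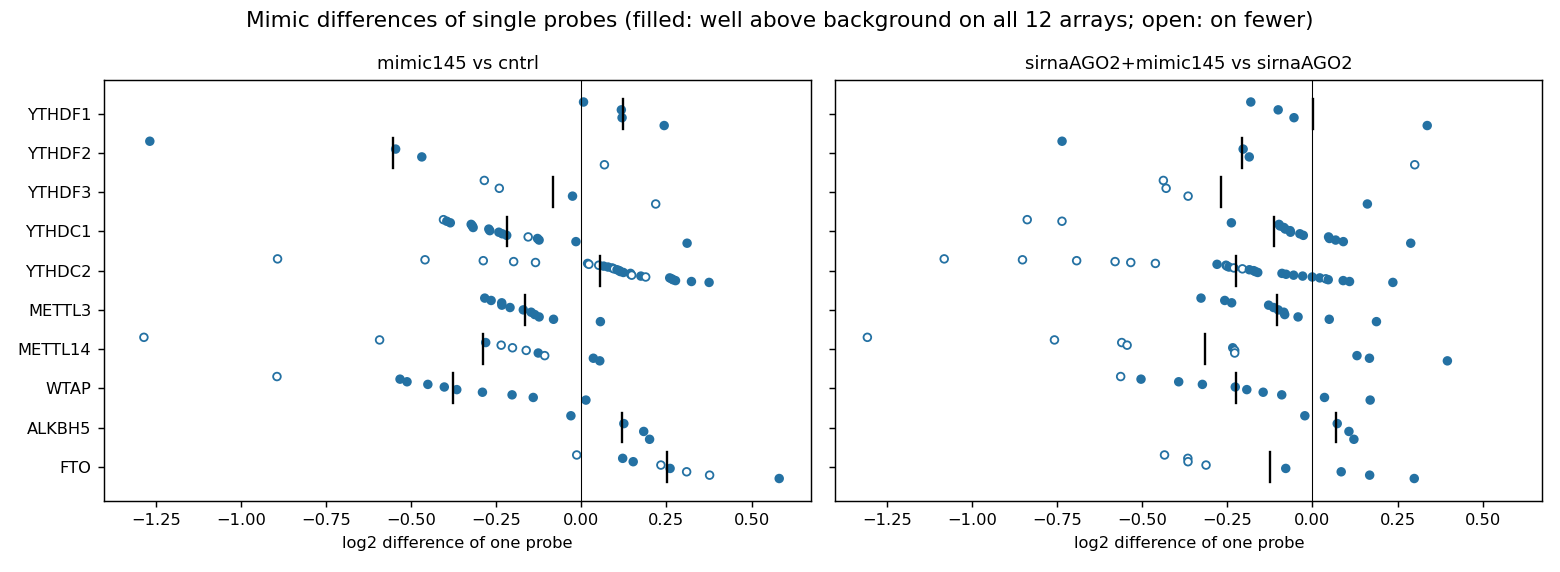
Mimic difference of each kept probe on the log2 scale (horizontal axes) for the 10 genes (vertical axis), in control cells on the left and in Ago2-silenced cells on the right, with filled points for probes above background on all 12 arrays, open points for the others and a black bar for the mean. On the right, 25 of the 27 open points are below 0, and 3 of 4 points of YTHDF2 are below 0 in both panels. Most open points are probes not above background on every sirnaAGO2+mimic145 array, which favors low values on the right. Most are also not above background on every mimic145 array, which favors low values on the left.

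The difference between the arms was tested itself. Of the 10 genes, 0 passed, where 0.0110% of all genes did, and 2 of the 10 had an unadjusted p under 0.05 in limma, YTHDF2 and FTO, against 16.8% of all genes. The paired test gave 2 at p of at most 0.05, YTHDF2 and WTAP but not FTO, against 10.3% of all genes. For YTHDF2, the mimic difference was smaller in silenced than in control cells by 0.35 (SE 0.10, 95% confidence interval 0.12 to 0.58), in 3 of 3 replicates and on 4 of 4 kept probes, with an adjusted p of 0.158 (limma). For WTAP it was smaller by 0.15 (adjusted p = 0.491, limma), on 9 of 10 kept probes. For FTO, the difference between the arms was -0.38 (adjusted p = 0.283, limma). It was -0.27 without sirnaAGO2+mimic145 replicate 2 and -0.16 on the 4 probes above background on all 12 arrays. In silenced cells FTO was higher with the mimic in 2 of 3 pairs and lower in replicate 2, at a mean of -0.13. That mean became 0.04 without replicate 2 and 0.12 on the 4 brighter probes. A call for YTHDF2 and WTAP in control cells and none in silenced cells is therefore not shown to be a difference between the arms.

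Silencing of Ago2 alone changed 0 of the 10 genes, where 2.58% of all genes changed, and 2 had an unadjusted p under 0.05 in limma, against 19% of all genes. These were YTHDF2 and METTL14. The paired test gave 1 gene at p of at most 0.05, YTHDF2, against 17.5% of all genes. YTHDF2 stood lower in sirnaAGO2 than in cntrl in 3 of 3 replicates and on 4 of 4 kept probes without overlap of the arrays, by -0.23 (95% confidence interval -0.40 to -0.07, adjusted p = 0.124, limma). Its probe 2 differed by -0.54, and probes 1, 3 and 4 by -0.03, -0.24 and -0.14. METTL14 gave 7.67, 7.36 and 7.94 on cntrl and 7.09, 7.16 and 7.42 on sirnaAGO2 arrays, lower in 3 of 3 replicates and on 10 of 10 kept probes, by -0.43 (adjusted p = 0.175, limma). On its 4 probes above background on all 12 arrays, the difference was -0.48 and passed (adjusted p = 0.0148). The silenced and unsilenced arrays were on separate slides, so each of these differences is between slides. The cntrl arrays are shared with the mimic comparison.

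Among mimic-transfected cells, silencing again changed 0 of the 10 genes, where 4.32% of all genes changed, and 3 had an unadjusted p under 0.05 in limma, METTL14, FTO and YTHDF3, against 21.5% of all genes. The paired test gave 2 at p of at most 0.05, FTO and METTL3 but not METTL14 or YTHDF3, against 12.1% of all genes. METTL14 was lower in 3 of 3 replicates by -0.46 (adjusted p = 0.130, limma), by -0.35 without sirnaAGO2+mimic145 replicate 2 and by -0.28 on its 4 probes above background on all arrays. FTO gave 8.05, 7.65 and 7.93 on mimic145 and 7.69, 7.15 and 7.71 on sirnaAGO2+mimic145 arrays, lower in 3 of 3 replicates and on 8 of 8 kept probes, by -0.36 (adjusted p = 0.110, limma), by -0.25 without sirnaAGO2+mimic145 replicate 2 and by -0.19 on its 4 brighter probes. YTHDF3 differed by -0.28 (adjusted p = 0.231, limma), by -0.15 without that array and by 0.09 on its 1 probe above background on all arrays. YTHDF2 and WTAP were higher with silencing, at 0.11 and 0.09, in 3 of 3 replicates each, with adjusted p of 0.409 and 0.524 (limma).

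The genes around these 10 moved in a mixed way. Of 33 related genes, all measured, 7 changed with the mimic in control cells, 3 lower and 4 higher, beside the 22.6% of all genes given above. Of 10 other writers and cofactors, METTL5, which methylates ribosomal RNA, rose by 0.36 (adjusted p = 0.0133, limma), and the other 9 did not pass. Of 13 further m6A-binding proteins, 3 changed: IGF2BP2, which stabilizes bound mRNA, fell by 0.32 (adjusted p = 0.00866), and ELAVL1, another stabilizing protein, and PRRC2A rose by 0.32 and 0.49 (adjusted p = 0.00766 and 0.0110). On leaving out a replicate or an array, METTL5 was called in 10 of 15 fits, and IGF2BP2, ELAVL1 and PRRC2A in 13 each. Under 13 other settings METTL5 was called in 10, and the other 3 in 9 each. In each of the 3 lists, genes lay on both sides of 0.

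Of 10 partners of the YTH proteins, 3 changed. XRN1, the exonuclease that degrades mRNA from its 5′ end, fell from 7.92, 7.57 and 8.12 on cntrl to 7.36, 7.05 and 7.18 on mimic145 arrays, by 0.67 (adjusted p = 0.00240, limma), with no overlap. RIDA, which links YTHDF2 to the endonuclease RNase P/MRP, fell from 8.70, 8.76 and 8.47 to 8.17, 8.26 and 7.88, by 0.54 (adjusted p = 0.0111, limma). NXF1, the mRNA export receptor that acts with YTHDC1, rose by 0.35 (adjusted p = 0.00606, limma). XRN1, RIDA and NXF1 were called in 14, 12 and 13 of the 15 fits that left out a replicate or an array. Under the 13 other settings they were called in 12, 12 and 10. CNOT1, the scaffold of the deadenylase that YTHDF2 recruits, differed by -0.24 and did not pass.

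In silenced cells, 1 of the 33 changed with the mimic, NXF1 at 0.27 (adjusted p = 0.0452, limma), and it passed in 0 of the 15 fits that left out a replicate or an array. XRN1 and IGF2BP2 differed by -0.40 (adjusted p = 0.0542, limma) and -0.24 (adjusted p = 0.0561) and did not pass. RIDA differed by -0.05 there, with a difference between the arms of 0.49 (adjusted p = 0.205, limma). Silencing, in either background, and the difference between the arms gave 0 changed among the 33, with 5, 8 and 5 genes at an unadjusted p under 0.05 in limma, against 19%, 21.5% and 16.8% of all genes. The paired test gave 4, 5 and 3 at p of at most 0.05, against 17.5%, 12.1% and 10.3% of all genes.

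**Figure D5:**
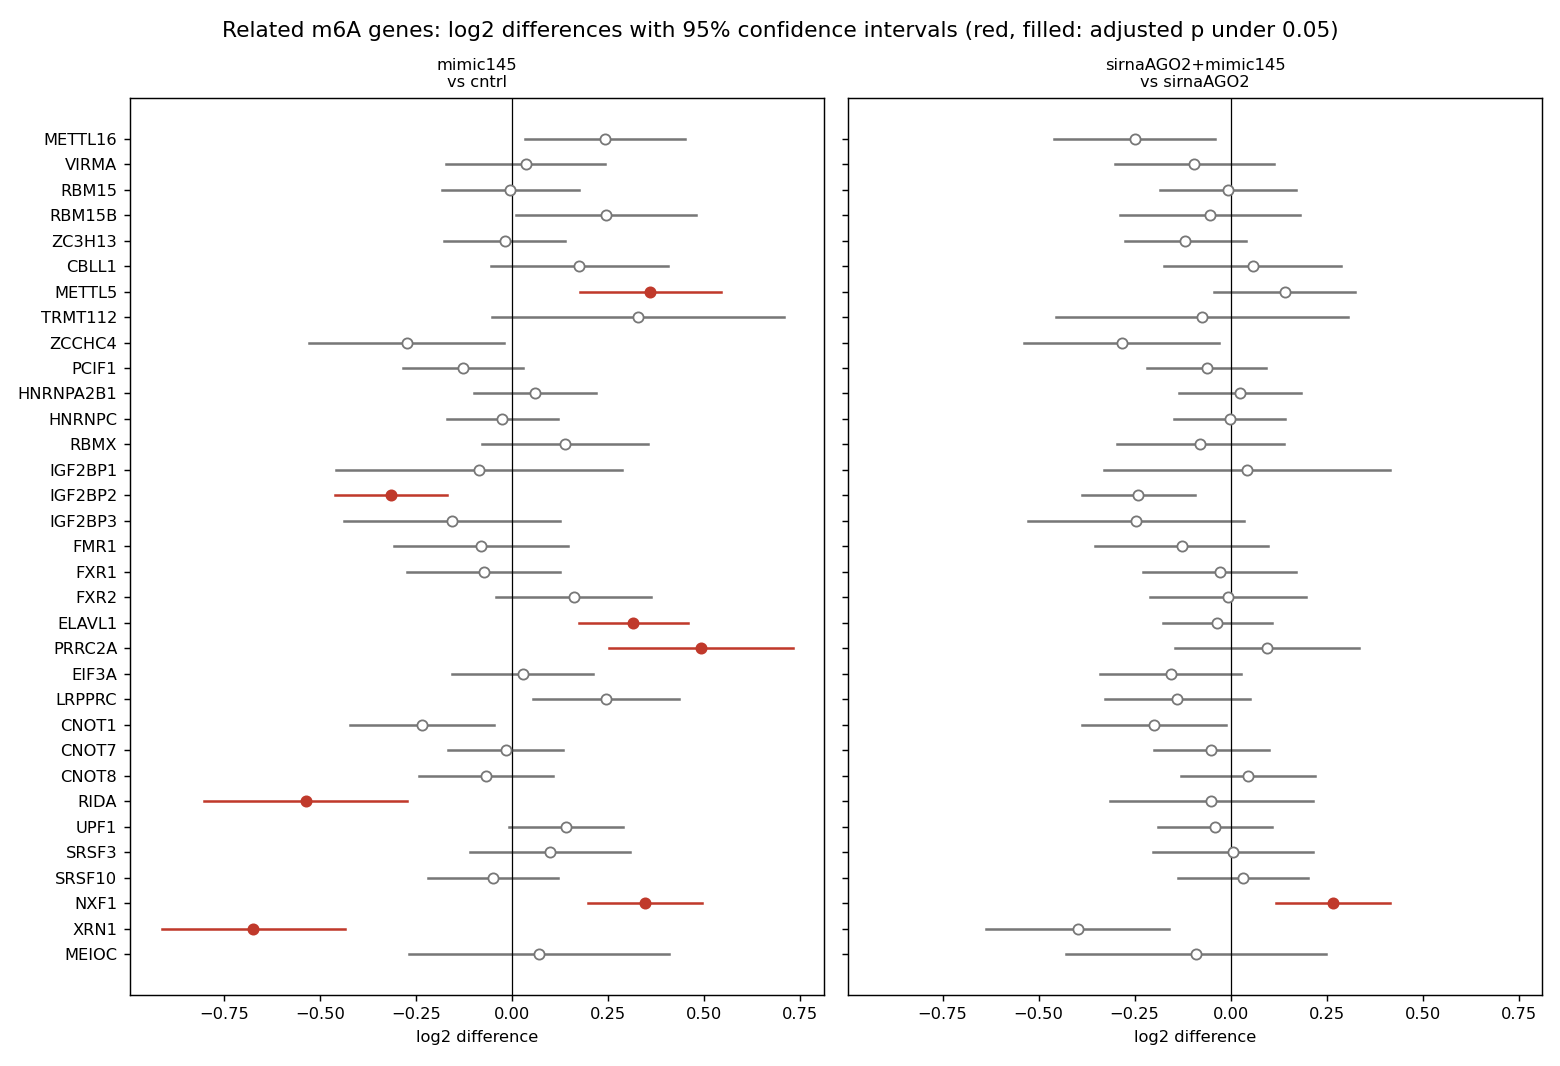
Log2 differences (horizontal axes) of 33 related m6A genes (vertical axis) with the mimic in control cells on the left and in Ago2-silenced cells on the right, with 95% confidence intervals from limma as lines, and red filled points where the adjusted p was under 0.05. XRN1, RIDA and IGF2BP2 are lower and METTL5, ELAVL1, PRRC2A and NXF1 higher on the left, and NXF1 alone is red on the right.

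The genes whose 12 values were most like those of YTHDF2, of 13328 genes with at least 3 kept probes, were DNAH2, an axonemal dynein, at a Pearson r of 0.97, DHRS4L2 at 0.96, RAB31 at 0.96, ARF5 at 0.95 and SEC11A at 0.95. Among the 10 genes themselves, WTAP came closest at 0.64, followed by METTL3 at 0.56, and YTHDF1 was farthest at -0.44. These values describe 12 arrays that share 4 groups and 6 slides, and carry no test.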

How the data were processed

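Per the labels, the 12 arrays of MDA-MB-231 cells fall into 4 groups of 3. For each array, labelled in 1 color, the authors deposited the Feature Extraction 10.7.3.1 processed signal, an intensity corrected within the array. Their series table, also deposited, has log2 values that were quantile normalized over the arrays and served as an alternative. The sources have 0 unused sample columns. Signals were set to at least 1, quantile normalized, log2 transformed and averaged over spots, and a gene is the mean of its kept probes. Outlier spots (304 to 462 per array) and control spots were left out, and no spot was saturated. Probes were named through RefSeq accessions, and their sequences and positions were not used here.

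All 12 arrays were fitted with lmFit and eBayes of limma 3.58.1 (R 4.3.3, data.table version 1.17.8), with replicate numbers as a block, and two-sided tests were adjusted by Benjamini-Hochberg over 18253 genes. The paper's methods name a paired test, and the series is described as biological triplicates. Deviations of arrays from their group mean correlated at 0.148 to 0.576 across genes for the same number, and at -0.497 to 0.201 for others. Precision is limited by having 3 arrays a group. The methods were tested on simulated data, which held independent noise without replicate or slide effects and so cannot speak for the block. Alternatives were another scaling, background correction, source, filter, summary over probes, block, set of arrays, prior, test and threshold, and leaving out each replicate and array. Each slide held 1 mimic array and its partner without the mimic, and with the slide as a block the same calls were made among the 10 genes. For the silencing comparisons, which lie between slides, the slide entered only as a correlation between its arrays, estimated at -0.239. That fit cannot remove differences between slides, so it does not check those comparisons for them. The genes named were the 10, AGO2, those of the 3 related lists that passed in a comparison, and the 5 most like YTHDF2; CNOT1 was added after its value was seen. The 10 genes and the lists were chosen with earlier results of these data known. Plots used Python 3.11.15, matplotlib 3.10.9 and pandas 2.3.3.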

Additional observations from a re-analysis of the deposited data

How the results depend on the processing

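Results were recomputed with 13 other settings and by leaving out replicates or arrays (15 ways). The fall of YTHDF2 with the mimic in control cells was called in 12 of the 13, and not after Benjamini-Hochberg adjustment of the paired test (-0.55, adjusted p = 0.195). The fall of WTAP was called in 8 of 13, and not with the median over probes (-0.21), with the paired test adjusted, when the fit held the compared groups alone, or with a log2 change over 0.5 also required (-0.38 in each). Without the replicate block, WTAP kept -0.38 at an adjusted p of 0.0828 and was not called, which left 1 of the 10 genes changed in place of 2. Leaving out replicates or arrays gave -0.61 to -0.46 for YTHDF2 and -0.45 to -0.32 for WTAP in control cells, -0.23 to -0.19 for YTHDF2 in silenced cells, and 0.27 to 0.40 for its difference between the arms. The count of 2 changed genes in control cells became 4 with only probes above background on all 12 arrays, 3 with 75th percentile scaling, 1 with the median over probes, with only the arrays compared and with the log2 threshold, 0 with the adjusted paired test, and 1 to 2 on leaving out arrays. The count of 0 in silenced cells became 1 with normexp, with probes above background on all arrays and with the median, and 0 to 1 on leaving out arrays. YTHDF2 then passed, at -0.25, -0.38 and -0.46, where its control-cell values were -0.52, -0.76 and -0.91. The paired test at p of at most 0.05 passed 2 genes in silenced cells, with YTHDF2 at -0.21, 1 for silencing alone, 2 for silencing on top of the mimic, and 2 for the difference between the arms, with YTHDF2 at 0.35. The cause of these moves was not tested. Of 48 results of the 10 genes that were not called, 19 changed sign in 50 of 1334 recomputed values, and 15 values passed. Scaling by the 75th percentile moved the median of all genes in silenced cells from 0.02 to 0.11, and the share of higher calls from 58.4% to 80.2%.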
